A study of Mus musculus with 13 samples.

Results

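STAT3 binding was compared between IL-21 and IL-4 in wild-type (WT) IgM+ B cells of the mouse, using 4 of the 13 samples of the study. Each of these 4 CUT&RUN libraries has its own deposited list of peaks, which are stretches of the genome with more fragments than the local background. The members were the peaks on chromosomes 1 to 19, X and Y. They numbered 2034 and 1171 in the libraries with IL-21 (replicates 1 and 2) and 1455 and 853 in those with IL-4, or 5513 in all. Peaks that overlapped by at least 1 bp were joined, which gave 4856 regions. A region was called gained when both IL-21 lists and neither IL-4 list had a peak there, and lost in the reverse case.

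Naive splenic B cells had been cultured for 96 h with an activating antibody to CD40 (1 µg/mL) plus 12.5 ng/mL of IL-4 before IgM+ cells were sorted. Of these, 400000 then spent 1 h in the CD40 antibody with 12.5 ng/mL of IL-4 in one arm and with 10 ng/mL of IL-21 in the other. Every group had thus seen IL-4 for 96 h. No IL-4 is recorded for the last hour of the IL-21 arm, so that the presence of IL-21 and the absence of IL-4 cannot be told apart. IgM+ cells from STAT3 knockout (KO) animals, with 1 library for each cytokine (1073 peaks for IL-21 and 763 for IL-4), were used only as a check of the antibody. How the deletion was made is not given in the labels. The lists measure neither the transcript of the deleted gene nor the expression of cell type markers. Whether replicates came from separate animals is not stated, so the p-values reflect the spread among these libraries alone, and that spread may be technical.

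IL-21 is a cytokine of helper T cells. Its receptor pairs with the common gamma chain and signals through JAK1 and JAK3, which phosphorylate STAT3 so that it dimerises, enters the nucleus and binds DNA. IL-4 uses the common gamma chain as well, but signals mainly through STAT6. In B cells STAT3 acts in the response to IL-21 that leads to germinal centre and plasma cell programmes. STAT dimers recognise a palindrome with TTC on one side and GAA on the other, and the spacer between these arms differs among STATs, with STAT6 favouring the longer one.

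Promoter sequences are shown first, so that this palindrome can be seen at sites that carry the results. Among the 20 gained regions with the best ranks, 4 had their summit (the highest point of the peak) inside a RefSeq promoter window, which runs from 250 bases before to 50 after the start of a gene. The 3 windows printed first are from these, and the fourth is the promoter of Socs3, the feedback inhibitor of STAT3 signalling. The last pair had a peak in all 4 lists, and both were chosen because they hold the palindrome. Of the 5 promoter windows under summits of such regions 3 held it, and those of Jak3 and Stat3 did not. Each is from the RefSeq table on GRCm38.p6, the assembly of mm10, and runs 5′ to 3′ on the strand of the gene, with capitals on the TTCNNNGAA match (N is any base).
Smc6, chr12:11265636-11265935, plus strand: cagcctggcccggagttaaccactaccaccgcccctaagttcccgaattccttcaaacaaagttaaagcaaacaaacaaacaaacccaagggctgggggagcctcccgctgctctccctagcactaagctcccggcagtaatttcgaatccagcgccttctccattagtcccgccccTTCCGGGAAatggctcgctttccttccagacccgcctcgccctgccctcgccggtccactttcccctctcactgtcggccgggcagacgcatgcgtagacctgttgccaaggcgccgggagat
Rabggta, chr14:55721874-55722173, minus strand: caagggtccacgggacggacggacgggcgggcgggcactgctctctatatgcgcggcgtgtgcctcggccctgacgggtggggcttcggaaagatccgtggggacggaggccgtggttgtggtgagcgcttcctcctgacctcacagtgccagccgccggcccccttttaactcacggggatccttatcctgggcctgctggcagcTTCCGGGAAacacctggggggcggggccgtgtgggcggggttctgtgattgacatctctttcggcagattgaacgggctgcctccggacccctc
Ncf1, chr5:134229576-134229875, minus strand: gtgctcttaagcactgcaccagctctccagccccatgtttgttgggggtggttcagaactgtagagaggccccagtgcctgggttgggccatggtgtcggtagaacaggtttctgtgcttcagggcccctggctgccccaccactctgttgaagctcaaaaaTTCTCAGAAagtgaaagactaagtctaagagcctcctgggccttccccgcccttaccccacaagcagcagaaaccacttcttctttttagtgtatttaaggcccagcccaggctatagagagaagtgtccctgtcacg
Socs3, chr11:117969317-117969616, minus strand: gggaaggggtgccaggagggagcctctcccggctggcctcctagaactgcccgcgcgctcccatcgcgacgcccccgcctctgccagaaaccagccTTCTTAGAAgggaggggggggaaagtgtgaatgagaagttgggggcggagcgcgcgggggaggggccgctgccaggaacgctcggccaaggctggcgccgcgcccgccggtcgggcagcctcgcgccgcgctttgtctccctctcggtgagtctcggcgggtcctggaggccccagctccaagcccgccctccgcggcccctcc
Thg1l, chr11:45955139-45955438, minus strand: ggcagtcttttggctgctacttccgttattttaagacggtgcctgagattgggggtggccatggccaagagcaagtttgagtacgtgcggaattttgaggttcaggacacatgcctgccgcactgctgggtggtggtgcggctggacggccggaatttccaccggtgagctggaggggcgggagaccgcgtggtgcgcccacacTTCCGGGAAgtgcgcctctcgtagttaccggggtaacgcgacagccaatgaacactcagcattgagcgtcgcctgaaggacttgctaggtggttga
Icam1, chr9:21015690-21015989, plus strand: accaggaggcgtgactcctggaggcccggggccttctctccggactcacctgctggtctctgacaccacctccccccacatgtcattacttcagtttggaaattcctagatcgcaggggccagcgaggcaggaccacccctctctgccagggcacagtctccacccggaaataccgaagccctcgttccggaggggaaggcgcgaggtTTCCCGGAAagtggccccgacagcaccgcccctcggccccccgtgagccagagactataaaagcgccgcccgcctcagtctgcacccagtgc

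The match was TTCCGGGAA in the promoters of Smc6, Rabggta and Thg1l, TTCCCGGAA in that of Icam1, TTCTCAGAA in that of Ncf1 and TTCTTAGAA in that of Socs3. It began at position -73 from the start of Smc6, a subunit of a chromosome maintenance complex that acts in DNA repair. In Rabggta, a subunit of the enzyme that attaches prenyl groups to Rab proteins, it began at position -44. In Ncf1, which encodes part of the NADPH oxidase of phagocytes, it began at position -88. The centre of the match lay 73, 179 and 70 bp from the best summit of these 3 regions, and 88 bp from it in Socs3. Socs3 and Icam1, which encodes an adhesion molecule, had the match at positions -154 and -42, and Thg1l, a guanylyltransferase of histidine tRNA, at position -46.

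IL-21 gave 322 gained regions, which is 6.63% of the 4856 regions and 62.9% of the 512 regions found in at least 2 of the 4 lists. Lost regions numbered 10, which is 0.206% of all regions and 1.95% of the 512. Both counts rest on needing 2 libraries a group. Without the first or second IL-4 library 774 and 1303 regions would be lost against 355 and 334 gained, and without the first or second IL-21 library 1069 and 1875 would be gained against 16 and 13 lost. A further 45 regions had a peak in both IL-21 lists and 1 IL-4 list, 9 in both IL-4 lists and 1 IL-21 list, 37 in all 4 lists, and 89 in 1 list of each cytokine. Most regions were seen once, with 2288 in a single IL-21 list and 2056 in a single IL-4 list. No region can be tested alone, since 2 against 2 libraries allow no p below 0.333.

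Just over 50% of the 100 best peaks of each IL-21 list, 54 and 53, fell in gained regions, and 2 and 0 in regions of that list alone. Over the whole lists of 2034 and 1171 peaks, the best peaks of gained regions numbered 322 in each. Those of regions of that list alone numbered 1552 and 736. Gained regions need a peak in both replicates, and the part of this rule in these counts was not tested. The best of all were regions found in every list, which are described further on. Fold enrichment is the authors' own value for each peak, the height of the summit over the local background, and ranks follow the authors' −log10 p within a list. The region within Gen1, a nuclease that cuts recombination intermediates and that shares this gene end with Smc6, had folds of 29.9 and 17.2 and ranks 13 and 14 in the 2 IL-21 lists. At Gsk3a, a kinase that acts on glycogen synthase and beta-catenin, the folds were 25.5 and 16.7 (ranks 19 and 17). The Rabggta region had folds of 33.4 and 15.2 (ranks 14 and 23). In these 3 regions the first replicate gave the higher fold, as it did in 278 of the 322 gained regions (86.3%). The median ratio of the first to the second fold was 1.49. Across the 322 regions the folds of both replicates had a Spearman rho of 0.63, a description over sites that share the same pair of libraries.

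**Figure D1:**
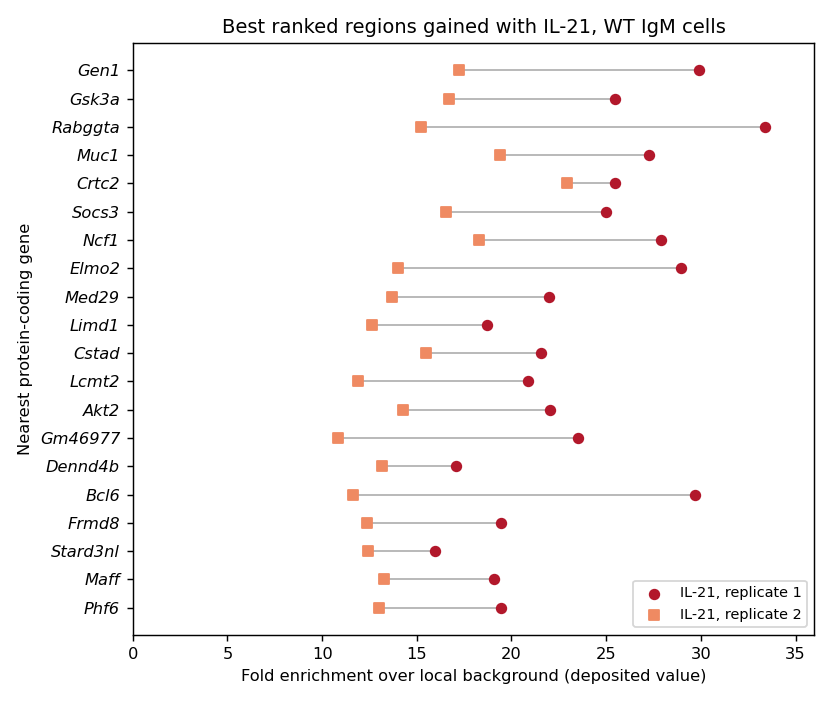
Fold enrichment over the local background (x axis) of the 20 gained regions with the best mean rank, each on its own line under the nearest gene, with 1 point for each IL-21 replicate. Folds run from 10.9 to 33.4, and neither IL-4 list had a peak in any of these regions.

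The other leading regions lay at genes of several kinds. Among signalling genes were Muc1, a membrane mucin (folds 27.3 and 19.4), Crtc2, a coactivator of CREB (25.4 and 22.9), Akt2, a kinase downstream of PI3K (22.0 and 14.3), and Limd1, a LIM-domain adaptor (18.7 and 12.6). Elmo2, which acts with DOCK proteins to activate Rac, had folds of 29.0 and 14.0. Regulators of transcription were Bcl6, the repressor that germinal centre B cells need (29.7 and 11.6), Med29, a Mediator subunit (22.0 and 13.7), Maff, a small Maf protein (19.1 and 13.3), and Phf6, a chromatin protein (19.4 and 13.0). Ncf1 had folds of 27.9 and 18.3, and the region upstream of Gm46977, which also covers the start of the repressor gene Etv6, had 23.5 and 10.9. Cstad, Lcmt2, Dennd4b, Frmd8 and Stard3nl made up the rest, with folds between 11.9 and 21.5. Of the 20 regions 12 had the summit within 1000 bp of the end of a protein-coding gene, and 1, Dennd4b, had a peak in a KO IgM library (fold 5.07 with IL-4), where 4.55% of all 4856 regions had a KO IgM peak.

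As a set, the peaks of gained regions were wider and had higher folds than the peaks that their own list alone held. In the first IL-21 library their median width was 537 bp against 284 bp for peaks in no other list, and their median fold 8.48 against 4.94. In the second the widths were 381 and 256 bp and the folds 5.53 and 4.36. Gained regions need a peak in both replicates, and the part of this rule in the contrast was not tested. Width was not particular to them. The joined regions had a median width of 612.5 bp when gained, 761 bp in both IL-21 lists and 1 IL-4 list, and 707 bp in all 4 lists. Summits of both replicates lay a median of 60 bp apart in gained regions (quartiles 24 and 141 bp), and within 50 bp in 137 of 322 (42.5%). A fold of at least 10 in both lists was seen in 34 gained regions. The smallest fold called at the background of each library was 3.85 and 3.60 with IL-21 and 3.63 and 3.62 with IL-4, by a solution of each fold and −log10 p for a fragment pileup. These values hold only for peaks at that background, which numbered 48 and 578 with IL-21 and 968 and 583 with IL-4. Lower folds were called elsewhere, down to 3.01 and 2.54 in gained regions with IL-21. Among peaks of the first IL-4 list alone they went down to 1.32. At the background, smaller enrichments with IL-4 would not appear in a list, so the absence of a peak is not the absence of binding.

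Socs3 had 6 gained regions, the most of any gene. From far to near, the regions at 19097, 16388 and 13532 bp outside the gene had folds of 13.7 and 4.66, 6.48 and 3.22, and 25 and 16.6. Those at 6044 and 2517 bp had 8.05 and 6.98, and 18.7 and 11.4, and the one at the promoter printed above 13.8 and 8.95. The strongest of the 6 was therefore not the promoter but the region 13532 bp away, in both replicates. Ppp1r16b, a regulatory subunit of protein phosphatase 1, had 3 gained regions within the gene, with folds of 5.38 to 10.8 in the first replicate and 4.69 to 5.26 in the second. Tha1, a threonine aldolase gene on the same stretch of chromosome 11 as Socs3, had 3, the best with folds of 14.5 and 8.58. In all, 14 genes had at least 2 gained regions, among them Cish, Ptpn1, Ccr7, Zfp36, Syk, Gadd45g and Plscr1.

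Gene groups were described by how many of their members had a gained region, where 277 of the 3269 genes with any region had one (8.47%). Groups and genes were listed with earlier results of these data known, so the counts are a description. JAK-STAT signalling and feedback genes had 7 of 18. The 7 became 6 with −log10 q of at least 2 and 5 with folds of at least 4. Under these filters all genes with a gained region went from 277 to 274 and 249. The feedback inhibitor Cish had 1 region within the gene (folds 15.5 and 8.32) and 1 at 10444 bp (13.1 and 7.27), and the inhibitor Socs1 had folds of 6.32 and 3.48. Ptpn1, a phosphatase that acts on JAKs, had its stronger region within the gene (15.4 and 5.97). Stat5b, which encodes a STAT activated by IL-2 family cytokines, had folds of 8.50 and 4.05. The kinase gene Jak1 had a region 26848 bp away (5.41 and 2.54), which ranked 1156 of 1171 in the second IL-21 list. Stat3, Jak3, Stat5a and Stat6 had regions that were not gained by this rule, and 0 of the 7 cytokine receptor genes with a region, Il21r and Il4ra among them, had a gained one.

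B cell and germinal centre genes had 7 of 19. Besides Bcl6, these were Ccr7, a chemokine receptor of lymph node homing (18.4 and 7.47 at 11813 bp), Pou2af1, the coactivator of octamer factors (12.6 and 6.07), Pou2f2 (8.83 and 4.98), Tcf4 (8.19 and 6.54), Bcl11a (7.0 and 6.28) and Irf8 (4.60 and 4.73). The Pou2f2 region and the second Ccr7 region also had a peak in the KO library with IL-21 (folds 6.18 and 7.11), and the Bcl11a region in the KO library with IL-4 (5.08). Of the 8 plasma cell genes with a region, gained ones were at Il10, an immunoregulatory cytokine (20.5 and 9.68), and Id2, an inhibitor of E proteins (10.4 and 5.09). Irf4, Jun and Cd38 had regions that were not gained.

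Survival and proliferation genes had 5 of 13. These were Mnt, an antagonist of Myc (12.7 and 5.76), the anti-apoptotic genes Bcl2l1 (9.18 and 5.29), Mcl1 (9.10 and 5.09) and Birc3 (7.41 and 2.74), and the pro-apoptotic gene Pmaip1 (8.69 and 4.05). The gained Mnt region also had a peak in the KO library with IL-4 (4.05). Another region within Mnt was not gained. Its folds were 6.25 and 4.09 with IL-21, 9.83 in the first IL-4 library and 5.45 in the KO library with IL-4. A region within Mcl1 was not gained either, with 8.85 and 3.72 with IL-21 and 3.46 in the first IL-4 library. Pmaip1 had a further region within the gene in the second IL-4 list alone (5.13). NF-kB and CD40 genes had 2 of 13, Bcl3, an atypical inhibitor of NF-kB (15.0 and 8.56), and Rela, an NF-kB subunit (9.69 and 4.18). AP-1 and immediate early genes had 3 of 16, Maff, the mRNA decay factor Zfp36 (16.2 and 8.30 at its stronger region) and the phosphatase Dusp1 (12.6 and 4.44). Interferon response genes had 4 of 8, IL-4 and STAT6 responsive genes 4 of 10, and p53 and growth arrest genes 3 of 5, with Mdm2, the ubiquitin ligase of p53, at 11.7 and 11.9. Of the cell type markers, 1 of the 6 B cell genes had a region (Pax5, not gained), 2 of the 6 myeloid genes (Csf3r gained, Itgam not) and 0 of the 6 T and NK cell genes.

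The palindrome with the shorter spacer was frequent in promoters under gained summits. Of the 322 gained regions 43 had their summit in a promoter window, and these covered 48 windows, of which 21 (43.8%, 95% Clopper-Pearson interval 29.5 to 58.8) held TTCNNNGAA. By region, 18 of the 43 held a match, and the interval takes windows that share a region as separate. Both strands were searched, and the pattern reads the same on each. The share was 10.1% of 278 windows under regions of a single IL-21 list, 7.41% of 162 under regions of a single IL-4 list, and 8.30% of all 32851 promoter windows. The palindrome was not particular to gained regions, since 3 of 5 windows under regions of all 4 lists and 4 of 12 (33.3%) under regions of both IL-21 lists and 1 IL-4 list held it too. Under KO peaks it was 3.13% of 96 windows with IL-21 and 4.55% of 198 with IL-4. The same arms with the longer spacer (4 bases in place of 3) were in 2 of the 48 gained windows (4.17%) and in 6.95% of all windows. A single TTC arm cannot serve both patterns. Median GC content was 64.3% in gained windows and 64.3% in windows of a single IL-21 or IL-4 list, against 52.7% over all windows. Gained regions need a peak in both replicates and so also had higher folds than regions of a single list, and the part of peak strength in these shares was not tested.

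In the 18 gained regions with a match, its centre lay a median of 84.5 bp from the best summit (range 2 to 209), and within 100 bp in 10. The match was TTCCGGGAA or TTCCCGGAA in 9 of the 18. A match describes these letters in these windows, and most gained summits lay outside any promoter window, where no sequence was read.

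**Figure D2:**
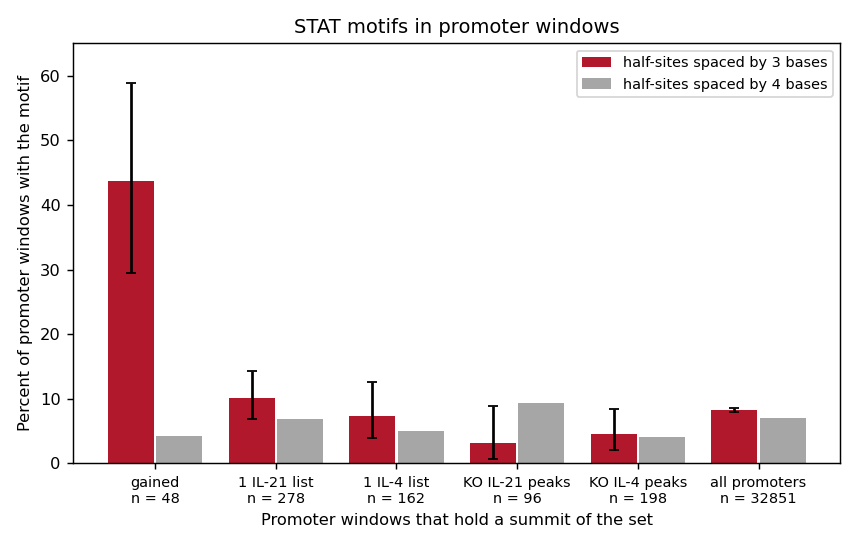
Share of promoter windows (percent, y axis) that held the palindrome with a spacer of 3 (red) or 4 bases (grey), for windows under gained regions, regions of a single list and KO peaks and for all windows. Bars on the red columns are 95% Clopper-Pearson intervals that cover counting error only. Gained windows reached 43.8% for the shorter spacer, and all windows 8.30%.

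The share of regions beside gene ends was higher in gained regions than in those of a single list, and higher still in most other classes found in several lists. The summit was at most 1000 bp from an end of a protein-coding gene in 122 of 322 (37.9%, interval 32.6 to 43.4), against 24.8% of regions of a single IL-21 list, 14.4% of regions of a single IL-4 list and 22.6% of all regions. The share was 51.1% of the 45 regions of both IL-21 lists and 1 IL-4 list, 64.0% of the 89 found in 1 list of each, 35.1% of the 37 found in all 4, and 8 of the 9 found in both IL-4 lists and 1 IL-21 list. It lay within a gene in 161 (50%, against 50.8% of all regions). In 25 (7.76%) no protein-coding gene was within 50000 bp, and 11 of these had the summit in a long noncoding RNA gene, with 2 in Pvt1. Over whole lists 31.5% and 26.3% of peaks with IL-21 were near gene ends, against 19.9% and 17.1% with IL-4. The groups did not overlap, and the means of 28.9% ± 3.65 and 18.5% ± 1.99 (SD, n = 2 each) differed by 10.4 points, with p = 0.333 in a two-sided exact permutation test, the smallest value that 2 against 2 allow.

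Median peak width was 313 and 277 bp with IL-21 and 264 and 260 bp with IL-4. These groups did not overlap either (295 ± 25.5 against 262 ± 2.83 bp, SD, n = 2 each, difference 33 bp, exact permutation p = 0.333). Peak number overlapped between the groups. On the log2 scale the lists held 10.99 and 10.19 with IL-21 and 10.51 and 9.74 with IL-4, a difference of 0.47 (exact permutation p = 0.667).

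**Figure D3:**
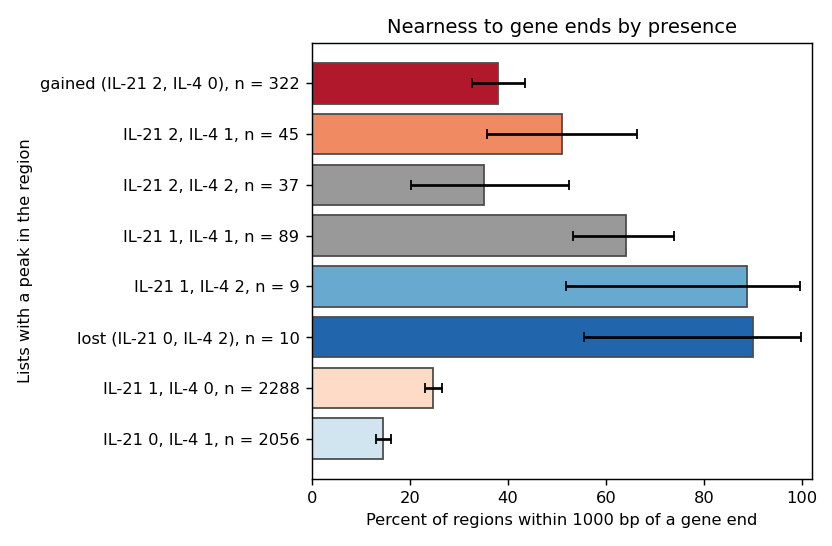
Share of regions (percent, x axis) with the summit at most 1000 bp from an end of a protein-coding gene, for each class of region (y axis, the number of IL-21 and IL-4 lists with a peak), with 95% Clopper-Pearson intervals. Gained regions stand at 37.9%, regions of a single IL-4 list at 14.4%, and the small class of lost regions at 90%.

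Over whole lists 25.6% (819 of 3205, interval 24.1 to 27.1) of IL-21 peaks and 5.03% (116 of 2308, 4.17 to 6.0) of IL-4 peaks overlapped a peak of the other replicate, a gap of 20.5 points. The best peaks with IL-21 were found again in the other IL-21 library, while those with IL-4 often were not. Of the 100 best peaks of the first IL-21 list 98 overlapped a peak of the second, and of the 100 best of the second 99 overlapped a peak of the first. For the IL-4 lists 35 and 37 did. At 500 peaks the shares were 58.2% and 62% with IL-21 and 9% and 10% with IL-4. At 853 peaks, the length of the shortest list, they were 40.9% and 45.3% against 6.57% and 6.92%. These shares look for the best peaks of a library in the whole list of the other, and the lists searched differ in length. With every list held to its 853 best peaks the gap between IL-21 and IL-4 was 32.7 points.

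Of the 100 best IL-4 peaks of the first library 53 and 41 overlapped a peak of the first and second IL-21 lists and 35 one of the other IL-4 list, which is shorter (853 peaks against 2034 and 1171). For the second IL-4 library the numbers were 39, 36 and 37. Of the 100 best IL-4 peaks, 42 and 55 lay in regions of that list alone. In the KO library with IL-4, 42 and 36 of the 100 best WT IL-4 peaks had a peak, against 21 and 22 of the 100 best WT IL-21 peaks. In the KO library with IL-21 the numbers were 32 and 32 against 19 and 20.

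**Figure D4:**
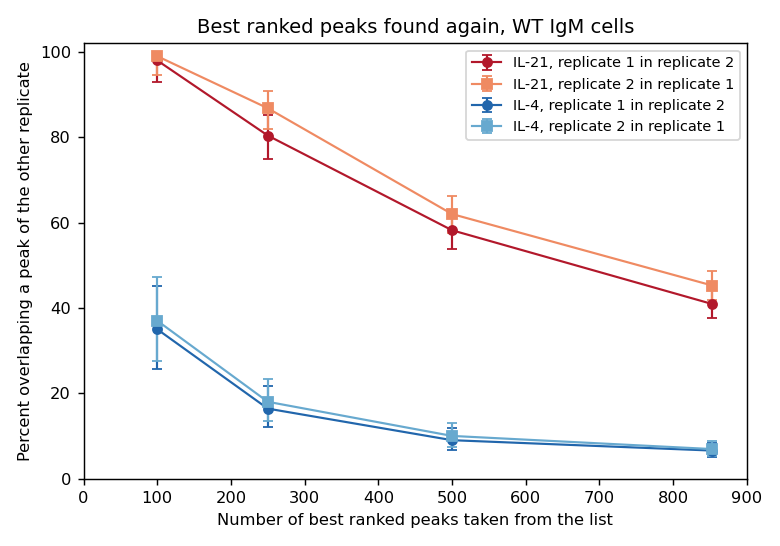
Share of the best peaks of a library (percent, y axis) that overlapped a peak of the other replicate, for growing numbers of best peaks (x axis), with 1 line for each of the 4 WT IgM libraries and 95% Clopper-Pearson intervals. At 100 peaks the IL-21 libraries stand at 98% and 99% and the IL-4 libraries at 35% and 37%.

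Peaks in both IL-21 lists and 1 IL-4 list included strong sites that the gained rule leaves out. Arf6, a small GTPase of membrane traffic, had folds of 34.1 and 22.7 with IL-21 and 4.82 in the second IL-4 library. Gadd45b, a stress response gene, had 23.0 and 12.3, with 5.04 in the first IL-4 library. Crebrf, Mllt6 and Glt28d2 were also among the 5 best ranked of these that had a gene within 50000 bp. Each of these regions had its peaks in both IL-21 libraries and in 1 of the IL-4 libraries.

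The 37 regions with a peak in all 4 lists could be ranked over the same set in each library. In 10 (27%) both IL-21 ranks were better than both IL-4 ranks, in 15 (40.5%) both were worse, and in 12 they overlapped. Of the 10, 9 had no KO IgM peak, and of the 15, 14 had a peak in both KO IgM lists. At Slc39a1, a zinc transporter gene, the ranks were 8 and 10 with IL-21 and 29 and 26 with IL-4, and the folds within each list 95.4 and 40.5 and 6.28 and 6.33. Lmna, which encodes lamins A and C, ranked 12 and 18 against 23 and 35. For Thg1l the ranks were 6 and 7 against 20 and 20, and its folds of 117 and 62.4 with IL-21 included the highest of all peaks in the 4 lists.

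Lsm4, a protein of the U6 RNA complex, ranked 5 and 5 with IL-21 and 17 and 17 with IL-4. Jak3, whose kinase binds the common gamma chain, ranked 16 and 15 against 24 and 31. Icam1 ranked 19 and 13 against 25 and 29. Stat3 itself had a region 79 bp from the gene with ranks 20 and 27 against 35 and 28, and folds of 23.5 and 11.4 with IL-21 and 3.57 and 4.70 with IL-4. Batf, an AP-1 factor needed for class switching, and Junb, its family member, ranked better with IL-21 in both replicates too.

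Worse ranks with IL-21 were led by a region 24530 bp from Col19a1 (25 and 29 against 16 and 16). A region within Filip1l followed (29 and 28 against 18 and 18), and both had peaks in both KO libraries. The Filip1l folds were 2.32 and 1.91 with IL-21 and 2.31 and 2.01 with IL-4. Mex3c, an RNA-binding ubiquitin ligase, was the exception without a KO peak (36 and 37 against 30 and 22). Of the 24 shared regions that also had a peak in both KO libraries, 18 had no gene within 50000 bp and 12 of these lay at the start of chromosome 9. Chr2:98666615-98667292 ranked 1 in all 4 lists, with folds of only 1.88 and 1.68 with IL-21 and 2.22 and 1.87 with IL-4. Ranks within the set are relative, so better ranks of some regions require worse ranks of others.

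**Figure D5:**
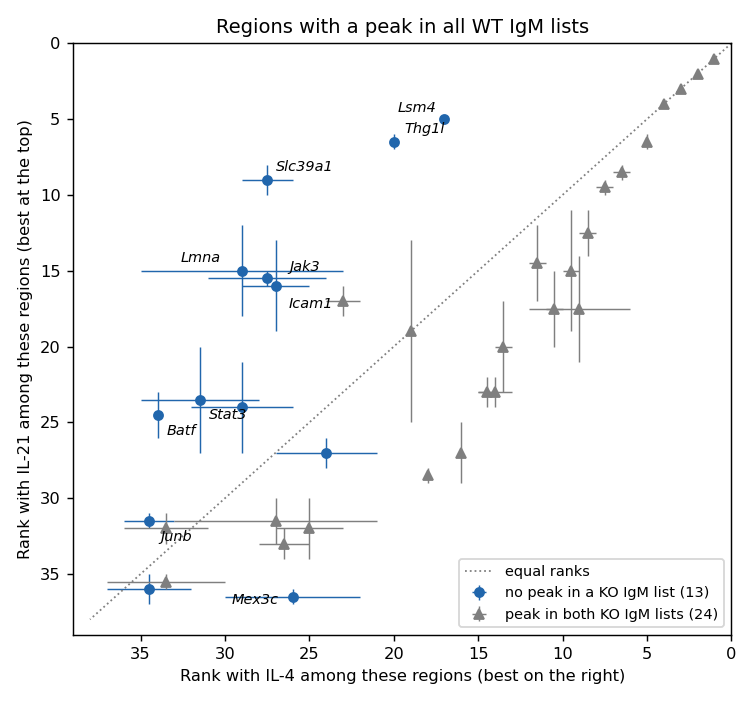
Mean rank among the 37 regions found in all 4 lists with IL-4 (x axis) and with IL-21 (y axis), where bars join both replicates, circles have no peak in a KO IgM list and triangles have one in both. Regions above the dotted line rank better with IL-21, and 9 of the 10 whose replicates do not overlap in that direction are circles.

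The 10 lost regions had low folds. Id3, an inhibitor of E proteins in B cells, had folds of 4.93 and 5.34 with IL-4 at a region 50 bp from the gene. Klhl36 had 4.23 and 4.45, Paqr3 4.61 and 4.98, Tmem266 4.62 and 5.43, Ctnnbip1, an inhibitor of beta-catenin, 4.98 and 3.96, and Map2k4, a kinase upstream of JNK, 7.87 and 3.28. Slc41a3, Csgalnact2 and Mcmdc2 had folds between 3.39 and 3.97, and the tenth region, chr9:3014058-3014307, had 1.85 and 1.66. Summits lay within 1000 bp of a gene end in 9 of the 10, and 6 of the 10 had a peak in a KO IgM list. The Id3 region had one in the KO library with IL-4 (5.21).

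KO peaks were few at gained regions, but they were fewer still over all regions. Of the 322, 11 (3.42%, interval 1.72 to 6.03) had a peak in the KO library with IL-21, so that 96.6% had none, and 27 (8.39%) had one in either KO library. Over all 4856 regions the shares were 2.27% and 4.55%, and over regions of a single IL-21 list 1.14% and 2.67%. Among the 37 regions of all 4 lists 24 had a KO peak. The lack of a KO peak was therefore not particular to gained regions. With 1 KO library for each cytokine, genotypes could not be tested.

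The same regions were read in WT IgG1+ cells of the study, whose libraries had no part in choosing them. Of the 322 regions 35.1% and 69.3% had a peak in the IgG1 libraries with IL-21, and 2.80% and 1.24% in those with IL-4. Over all 4856 regions the shares were 5.62% and 11.9% with IL-21 and 1.61% and 1.11% with IL-4. The groups did not overlap, and the difference of 50.2 points had p = 0.333 (exact permutation test, the smallest that 2 against 2 allow). It was 16.9 and 14.6 points for regions called without the first or second IL-21 IgM library, and 33.1 points without the second IgG1 library with IL-21. All 20 of the best-ranked gained regions had a peak in both IgG1 libraries with IL-21, but only 104 of the 322 gained regions did. The count was 223 of all 4856 regions, 29 of the 45 in both IL-21 lists and 1 IL-4 list, and 33 of the 37 in all 4 lists. Of the 322 gained regions, 232 overlapped at least 1 of these IgG1 lists for IL-21. Several genes named above had a gained region that overlapped neither. These were Bcl2l1, Mcl1, Pmaip1, Birc3, Pou2af1, Pou2f2, Jak1, Mdm2 and Csf3r. Among the survival and proliferation genes, only the gained Mnt region overlapped either list, and it overlapped both.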

How the data were processed

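Per the submitters' processing notes, the tools were MACS2 2.2.7.1, Bowtie2 2.4.1, deepTools 3.5.1 and Trimmomatic 0.39, on build mm10. The sources used here do not give settings, the control for peak calling, the use of the yeast spike-in or read depth. The input was not analysed here. Per the labels, the libraries used anti-STAT3 clone 124H6 and 14 PCR cycles. Each deposited list gives, per the file's values, a fold enrichment (a ratio made by the authors) and a −log10 p and −log10 q, also deposited by the authors, for each peak. Peaks were called per library. Of the 4 WT IgM lists 132 peaks on other sequences were left out.

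Regions were joined, classed and ranked with Python 3.11.15, NumPy 2.4.6 and SciPy 1.17.1, after the steps were tested on simulated data. Genes (21887 protein-coding, the nearest within 50000 bp) and 32851 promoters came from RefSeq tables on GRCm38.p6. The gene table used here has no strand or exons, so exon and intron are not given. Libraries were compared by two-sided exact permutation tests (6 arrangements). Named genes were those at the 20 best-ranked gained regions, all lost regions, the 10 best-ranked regions of all 4 lists and the 5 largest rank differences each way (regions with no gene are given as counts), genes with at least 3 gained regions, and listed genes with a gained region. A listed gene is not reported here. Arf6, Gadd45b, Crebrf, Mllt6 and Glt28d2 were named after their values were seen. Members and lists were chosen with earlier results of these data known. Intervals cover counting error only. Alternatives were the overlap rule, stricter peak filters, equal list lengths, gene distances, each library left out and the replicate block.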

Additional observations from a re-analysis of the deposited data

Results flagged for a closer look

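The region near Id3 changed presence in opposite directions in both cell types. In WT IgM cells it had a peak in both IL-4 libraries (folds 4.93 and 5.34) and in neither IL-21 library. In WT IgG1 cells it had a peak in both IL-21 libraries (folds 5.14 and 5.93) and in neither IL-4 library. The STAT3 KO IgM cells with IL-4 also gave a peak at this region (fold 5.21). Of the 10 lost regions, 5 overlapped at least 1 IgG1 list for IL-21, and 2 overlapped at least 1 for IL-4. Only Id3 among the 10 overlapped both IgG1 lists for IL-21. These lists were longer (865 and 1485 peaks) than the IgG1 lists for IL-4 (651 and 623). The part of list length and the difference between the cell types were not tested.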

How the results depend on the processing

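Gained regions numbered 308 when 50% of the shorter peak had to overlap and 278 when summits had to lie within 200 bp. No difference between IL-21 and IL-4 in a library measure changed sign under an alternative, though many values changed in size. Counts of regions have no sign, so they could only change in size. Gained regions outnumbered lost ones except when an IL-4 library was left out. The counts were then 355 gained against 774 lost without the first, and 334 against 1303 without the second. The difference in median width was 95 bp at equal list lengths. The gap in replicate overlap between IL-21 and IL-4 was 20.5 points as reported, 17.0 by summits, 22.5 with folds of at least 4 and 32.7 at equal list lengths. Lost regions fell from 10 to 5 with folds of at least 4 and to 4 without regions with a KO IgM peak. Shared regions that ranked higher or lower with IL-21 fell to 2 and 2 under the first of these and to 2 and 2 under the second, where fewer regions were left.

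Leaving out a library makes the presence rule easier to meet in that group. Gained regions then ran from 334 to 1875 (1069 without the first IL-21 library, 1875 without the second) and genes with one from 287 to 1409. Lost regions ran from 13 to 1303 (16 without the first IL-21 library, 774 and 1303 without the first or second IL-4 library). Regions ranked higher ran from 12 to 28 and lower from 20 to 28, with both at 28 without the second IL-4 library. The share of gained regions without a KO IL-21 peak ran from 96.1% to 98.6%, and the IgG1 difference from 14.6 to 67.2 points. Differences in width ran from 15 to 51 bp, in log2 peak number from 0.07 to 0.87 and near gene ends from 7.78 to 12.9 points.

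Replicate numbers were not taken to pair the libraries. The labels name no shared batch. Differences between replicates had r = -0.103 over 37 regions, with 2 pairs, a value that cannot show a shift common to all regions. The first replicate had more peaks in both groups (2034 against 1171 with IL-21 and 1455 against 853 with IL-4). With the replicate number as a block, every exact permutation test gave p = 0.5, the smallest it allows, and 322 gained and 10 lost regions. Crossing the numbers, chosen after seeing the data, gave the same 322 and 10, since presence in both libraries does not use the number. Depth is unknown, so a missing peak sets no limit on binding.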
